A study of Mus musculus with 24 samples.

Results

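Glycogen metabolism in mouse skeletal muscle was followed through 9 genes chosen by name: Gys1, Gbe1 and Ugp2 of glycogen synthesis, Pygm of glycogen breakdown, the phosphorylase kinase subunits Phka1, Phkb and Phkg1, and the phosphatase targeting subunits Ppp1r3a and Ppp1r3c. All 9 had a single probe set of their own among the 14754 genes with one, and 8 of them were bright enough to be tested among 5793 tested genes. The samples were quadriceps muscles of male C57BL/6J mice (written C56BL/6J in the sample labels), 1 mouse per Affymetrix array and 24 arrays in all. Every mouse first ate a low fat run-in diet and was then assigned at random to a palm oil diet with 10% (low fat) or 45% (high fat) of its energy as fat, for 3 or 28 days, with 6 mice in each of the 4 groups. The mice were 12 weeks old at day 3 and 16 weeks old at day 28, so time on the diet and age cannot be told apart. The low fat mice carried animal numbers from 2010 to 2025 and the high fat mice from 1751 to 1772, with a separate run for each day. Anything that these numbers mark cannot be told apart from diet or day.

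Glycogen is the glucose store of muscle. UDP-glucose is made by the pyrophosphorylase Ugp2, added to the growing chain by glycogen synthase (Gys1 in muscle) and turned into branches by the branching enzyme Gbe1. Glycogen phosphorylase (Pygm in muscle) releases glucose 1-phosphate, and phosphorylase kinase, a complex of regulatory subunits (Phka1 in muscle and Phkb), a catalytic subunit (Phkg1 in muscle) and calmodulin, switches phosphorylase on when calcium rises. Protein phosphatase 1 opposes this by activating glycogen synthase, and subunits such as Ppp1r3a and Ppp1r3c carry it to the glycogen particle.

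The tissue label was checked first. The mean log2 intensity of 4 skeletal muscle markers (Acta1, Ckm, Mb and Des) lay between 13.00 and 13.33 on all arrays, and that of 4 hepatocyte markers between 1.77 and 2.51. Within its narrow range the muscle mean did not overlap between the diets at day 28 (13.03 to 13.16 on low fat, 13.22 to 13.33 on high fat). Of the 4 muscle markers, 1 was called higher on high fat at each day. Slow fibre markers ran from a mean of 4.01 to 7.74 on low fat and from 8.36 to 10.97 on high fat, so the diets did not overlap for them at either day. Of 10 tested fast fibre markers, 0 were called by diet at either day, and their mean lay between 13.37 and 13.47 on all arrays. The mean of 9 adipocyte markers ran from 5.85 to 8.74 on low fat and from 5.40 to 8.62 on high fat at day 3, and from 7.64 to 9.36 and from 5.19 to 6.21 at day 28. All 7 tested macrophage markers were called lower on high fat at day 28 and 1 of 7 at day 3, while 5 of 6 endothelial and 5 of 7 fibroblast and tendon markers were called higher at day 3. All values are log2 intensities, on which a difference of 1 is a 2-fold difference, and levels of different genes were not set against each other because each probe set has its own brightness.

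Only small differences by diet were seen among the glycogen genes. The branching enzyme Gbe1 was lower on high fat after 28 days, by 1.47-fold, and the phosphorylase kinase subunit Phka1 was lower on high fat after 3 days, by 1.23-fold. In a mean of both diet effects, added after the values were seen, Gbe1 and Ppp1r3c were lower on high fat, and this is no independent support for either. The muscle phosphorylase Pygm and glycogen synthase Gys1 did not pass the test in any comparison, and the 95% interval of the diet difference of Pygm stayed between -0.10 and 0.17 at both days. Read against all genes, the share of glycogen genes called was not unusual: at day 3 limma called 1 of 8 (0 higher, 1 lower) at an adjusted p under 0.05 against 14.9% of all tested genes (7.99% higher, 6.87% lower), and at day 28 again 1 of 8 (0 higher, 1 lower) against 12.5% (5.35% higher, 7.18% lower). The median log2 difference of the 8 genes was -0.16 at day 3 and 0.06 at day 28, beside medians of -0.01 and 0.01 over all tested genes. Of the 8 differences, 7 were negative at day 3 and 2 at day 28. These sign counts were not tested, and the 8 genes varied together in part, so their signs are not independent.

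**Figure D1:**
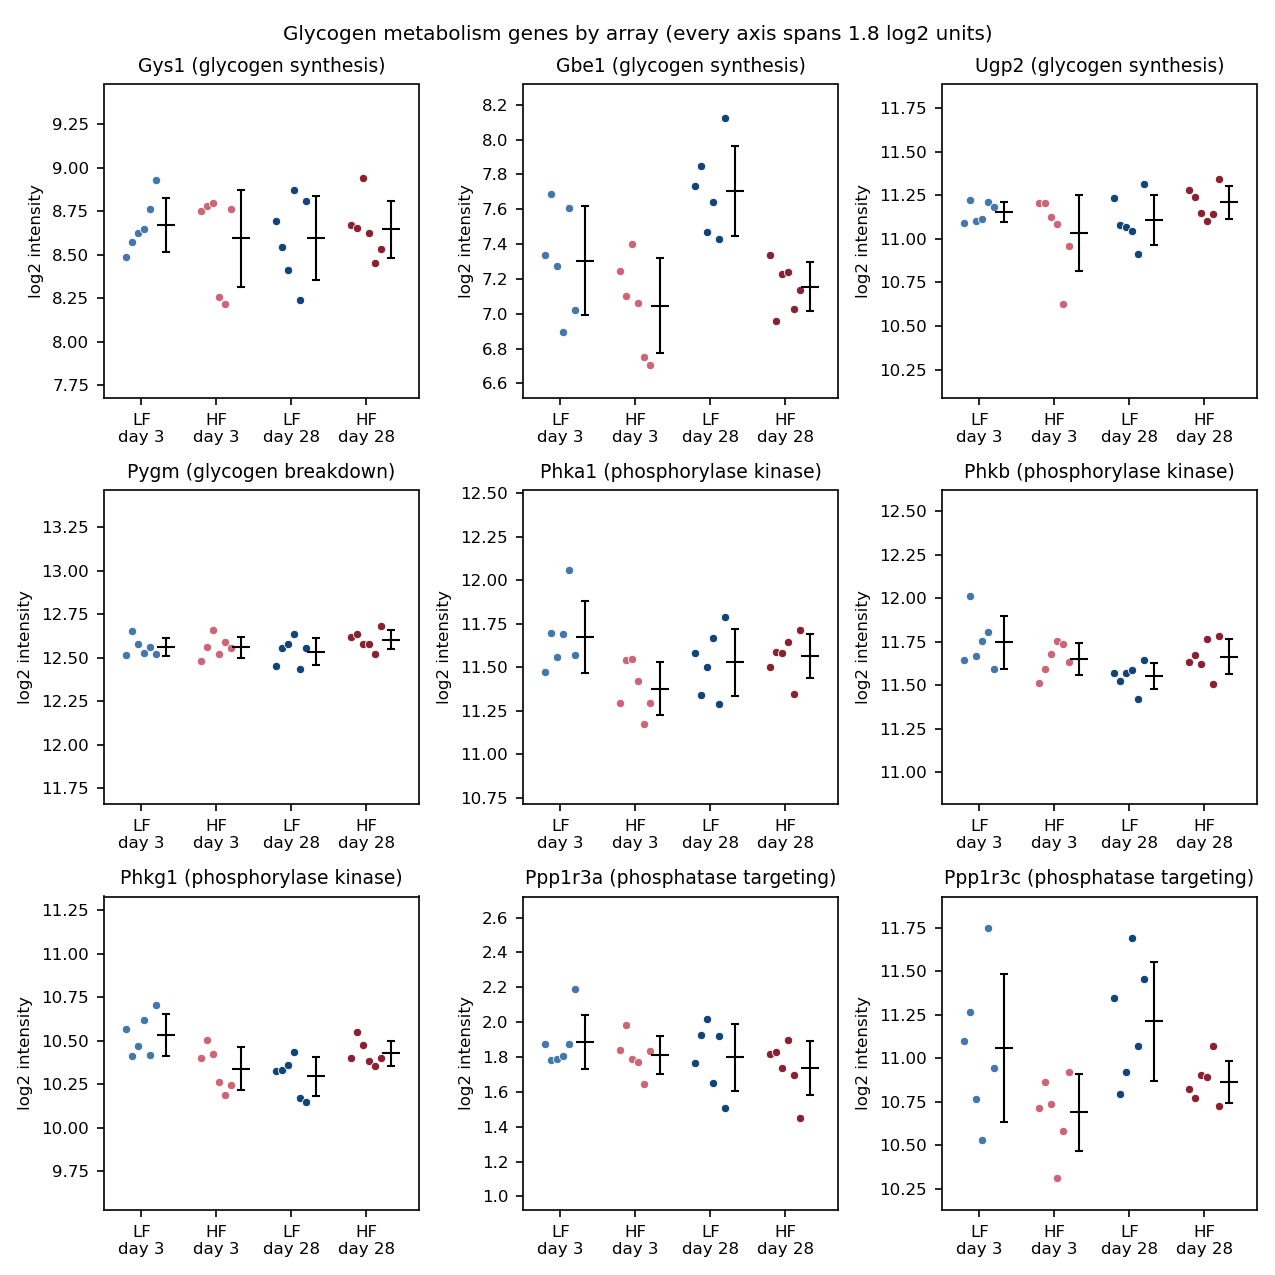
Log2 intensity (y axis) of the 9 glycogen metabolism genes in the 4 groups of 6 mice (x axis), with LF for low fat and HF for high fat, points for single arrays in replicate order and black marks for the mean and SD. Gbe1 on high fat at day 28 lies wholly below low fat at day 28, while the 6 values of every other gene overlap between the diets at each day.

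The promoters of Gbe1 and Phka1, which passed a planned test of diet, of Ppp1r3c, which passed only the added one, and of Pygm, the gene with the narrowest spread, are shown for orientation, each from 250 bases before to 50 bases after a transcript start, 5′ to 3′ on the gene's strand, from RefSeq on GRCm38.p6. All 9 genes matched this table, with 10 windows because Ugp2 has a pair of starts. Capitals mark matches on either strand to CANNTG (the E-box of myogenic and other helix-loop-helix factors), ACGTG (the core of the hypoxia response element), TGACG (the core of the cAMP response element) or the MEF2 motif. The windows are Gbe1 at chr16:70313699-70313998 (+ strand), Phka1 at chrX:102644197-102644496 (- strand), Ppp1r3c at chr19:36736555-36736854 (- strand) and Pygm at chr19:6384158-6384457 (+ strand).
Gbe1: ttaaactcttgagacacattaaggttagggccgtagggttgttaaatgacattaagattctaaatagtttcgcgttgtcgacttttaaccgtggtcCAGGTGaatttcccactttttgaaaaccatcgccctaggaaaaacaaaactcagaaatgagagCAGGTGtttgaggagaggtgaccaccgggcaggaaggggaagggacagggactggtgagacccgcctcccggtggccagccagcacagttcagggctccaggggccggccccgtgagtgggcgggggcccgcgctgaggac
Phka1: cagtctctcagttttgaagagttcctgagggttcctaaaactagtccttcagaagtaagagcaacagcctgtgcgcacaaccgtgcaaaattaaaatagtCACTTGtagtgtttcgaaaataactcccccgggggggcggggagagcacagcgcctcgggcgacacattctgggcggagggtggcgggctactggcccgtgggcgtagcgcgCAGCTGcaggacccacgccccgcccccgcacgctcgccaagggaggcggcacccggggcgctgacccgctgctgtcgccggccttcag
Ppp1r3c: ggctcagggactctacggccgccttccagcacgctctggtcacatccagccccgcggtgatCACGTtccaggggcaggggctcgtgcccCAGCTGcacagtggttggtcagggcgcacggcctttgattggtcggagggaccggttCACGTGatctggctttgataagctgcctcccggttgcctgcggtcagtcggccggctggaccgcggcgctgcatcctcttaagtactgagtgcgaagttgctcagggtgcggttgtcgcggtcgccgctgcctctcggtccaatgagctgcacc
Pygm: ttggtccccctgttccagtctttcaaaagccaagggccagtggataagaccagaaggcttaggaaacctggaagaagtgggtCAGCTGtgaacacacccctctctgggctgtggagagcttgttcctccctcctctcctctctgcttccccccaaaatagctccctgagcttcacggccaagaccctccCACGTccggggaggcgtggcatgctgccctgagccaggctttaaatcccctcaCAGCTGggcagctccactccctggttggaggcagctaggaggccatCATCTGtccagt

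Gbe1 and Phka1 each held 2 CANNTG matches and none of the other motifs. Ppp1r3c held 2 CANNTG matches, of which 1 was CACGTG, a word that also holds ACGTG on both strands, and 3 ACGTG matches in all. Pygm held 3 CANNTG matches and 1 ACGTG match. Among 32841 promoter windows of the same length, CANNTG was present in 72.3%, ACGTG in 19.6%, CACGTG in 7.15%, TGACG in 20.8% and the MEF2 motif in 0.557%. Of all 10 windows of the glycogen genes, only that of Ppp1r3c held CACGTG and only that of Ppp1r3a held the MEF2 motif. These matches describe the letters of the windows and say nothing of binding in these muscles.

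Of the synthesis enzymes, Gbe1 was the one that differed. At day 28 its lowest, median and highest log2 levels were 7.43, 7.69 and 8.13 on low fat, against 6.96, 7.18 and 7.34 on high fat. All 6 high fat mice were therefore below all 6 low fat mice, a pattern of separated, lower groups that 4.56% of all tested genes had. The log2 difference was -0.55 ± 0.14 (SE, n = 6 per group, 95% interval -0.85 to -0.26, limma adjusted p = 0.0110). At day 3 the levels were 6.90, 7.31 and 7.69 on low fat and 6.71, 7.08 and 7.40 on high fat, and the groups overlapped. That difference was -0.26 ± 0.14 (adjusted p = 0.228), and the diet effects of both days did not differ detectably, with an interaction of -0.29 ± 0.20 (95% interval -0.71 to 0.12, adjusted p = 0.447).

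The order of the group means of Gbe1 was low fat day 28 (7.71 ± 0.26, SD), low fat day 3 (7.31 ± 0.31), high fat day 28 (7.16 ± 0.14) and high fat day 3 (7.05 ± 0.27). Only the step between both low fat groups, 0.40, exceeded the larger SD of its neighbours, and that change between days was not called (limma adjusted p = 0.170). The call at day 28 stood without any one of the 24 arrays, at adjusted p of 0.00789 to 0.0344. The adipocyte and slow fibre markers moved with diet too, as given above. In a model holding the adipocyte marker level constant the log2 difference of Gbe1 was -0.68 ± 0.23 (SE, adjusted p = 0.250). In one holding the slow fibre level constant it was -0.50 ± 0.24 (adjusted p = 0.552), and the call was lost in both. At day 28 neither marker mean overlapped between the diets, so diet and marker level cannot be told apart in these models. These models called 38 and 23 of all tested genes at day 28, against 726 without a marker term.

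Gys1, the enzyme that builds the chain, did not pass in any comparison. Its lowest, median and highest levels were 8.49, 8.64 and 8.93 on low fat and 8.22, 8.76 and 8.80 on high fat at day 3, and 8.24, 8.62 and 8.87 against 8.46, 8.64 and 8.94 at day 28. The 4 groups overlapped throughout, and no step in the order of their means exceeded the larger SD. The differences by diet were -0.08 (95% interval -0.33 to 0.18) at day 3 and 0.05 (-0.20 to 0.30) at day 28. These intervals leave room for a difference of about the size seen for Phka1.

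Ugp2, which supplies UDP-glucose, likewise did not pass. Its levels were 11.09, 11.15 and 11.22 on low fat and 10.63, 11.10 and 11.21 on high fat at day 3, where replicate 5 on high fat was the lowest of all 24 arrays. At day 28 they were 10.91, 11.07 and 11.32 on low fat and 11.10, 11.19 and 11.35 on high fat. The diet difference was -0.12 ± 0.08 at day 3 (adjusted p = 0.356) and 0.10 ± 0.08 at day 28 (adjusted p = 0.498). Between days on high fat, Ugp2 differed by 0.18 ± 0.08, which did not pass either (adjusted p = 0.337).

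Pygm, the phosphorylase that frees glucose 1-phosphate in muscle, was the steadiest of these genes. Its levels were 12.52, 12.54 and 12.65 on low fat and 12.48, 12.56 and 12.66 on high fat at day 3, and 12.44, 12.56 and 12.63 against 12.52, 12.60 and 12.68 at day 28. All 4 groups overlapped, and no step in the order of the means exceeded the larger SD. Its SD within groups was 0.06, smaller than that of all but 0.570% of the tested genes, whose median was 0.19. Such a small spread was not particular to Pygm among bright muscle genes. The group SDs were 0.01 to 0.04 for Acta1 and 0.03 to 0.05 for Ckm. The diet differences were 0.00 ± 0.05 (95% interval -0.10 to 0.10) at day 3 and 0.07 ± 0.05 (-0.03 to 0.17) at day 28.

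**Figure D2:**
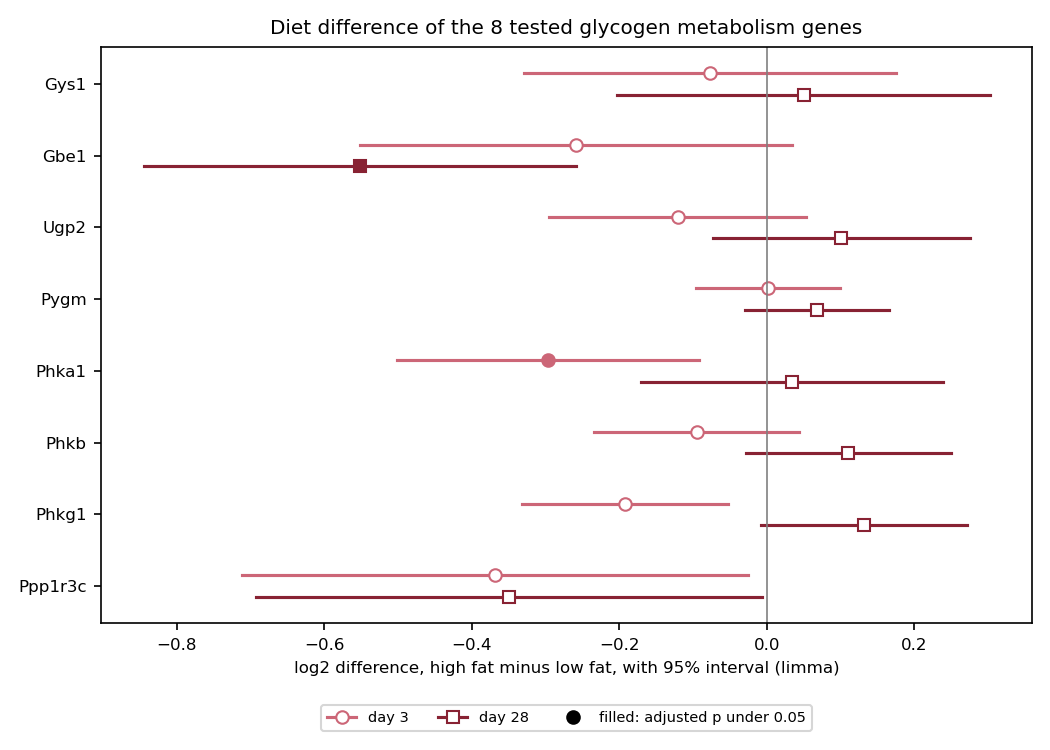
Log2 difference of high fat from low fat (x axis) for the 8 tested glycogen metabolism genes (y axis), with circles for day 3, squares for day 28, lines for the 95% interval and filled marks for an adjusted p under 0.05. Gbe1 at day 28 (-0.55) and Phka1 at day 3 (-0.30) are filled, and the interval of Pygm is the narrowest at each day.

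The 3 phosphorylase kinase subunits were all lower on high fat at day 3 by their means, but only Phka1, the muscle form of the alpha subunit, passed the test. At day 3 its lowest, median and highest levels were 11.47, 11.63 and 12.06 on low fat and 11.17, 11.36 and 11.55 on high fat. Of the high fat mice, 4 of 6 were below the lowest low fat mouse. The log2 difference was -0.30 ± 0.10 (SE, 95% interval -0.50 to -0.09, limma adjusted p = 0.0450). The call was close to the threshold: it was lost without any one of 13 of the 24 arrays, among them low fat day 3 replicates 2, 4 and 5 and high fat day 3 replicates 1, 4, 5 and 6, at adjusted p of up to 0.118, reached without low fat replicate 5, where the difference was -0.22. The rest of the 13 were low fat replicates 1 and 3 and high fat replicates 1, 2, 3 and 4 of day 28. It was also lost with the replicate number as a block (adjusted p = 0.0683), when only the day 3 arrays were fitted (0.0912), with no filter on low values (0.0820), with array weights (0.113), without the 4 arrays of highest beta-actin 3′ to 5′ ratio (0.0995) and with the adipocyte level held constant (0.0546).

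At day 28 the levels of Phka1 were 11.29, 11.54 and 11.79 on low fat and 11.35, 11.58 and 11.71 on high fat. These groups lay over each other, with a difference of 0.03 ± 0.10 (95% interval -0.17 to 0.24, adjusted p = 0.874). The interaction was 0.33 ± 0.14 and was not called (adjusted p = 0.206). In the order of the means, low fat day 3 (11.67 ± 0.21), high fat day 28 (11.56 ± 0.13), low fat day 28 (11.53 ± 0.19) and high fat day 3 (11.38 ± 0.15), no step exceeded the larger SD.

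Phkg1, the catalytic subunit, had levels of 10.41, 10.52 and 10.71 on low fat and 10.19, 10.33 and 10.50 on high fat at day 3. Again 4 of 6 high fat mice were below the lowest low fat mouse, and the difference of -0.19 ± 0.07 missed the threshold (adjusted p = 0.0572). It passed without low fat replicate 2 (0.0462), low fat replicate 5 (0.0476) or high fat replicate 2 (0.0328) of day 3, when a mean log2 above 6 was required for testing (0.0411) and with the adipocyte level held constant (-0.27, 0.0112). At day 28 the levels were 10.15, 10.33 and 10.44 on low fat and 10.36, 10.40 and 10.55 on high fat, a difference of 0.13 ± 0.07 in the other direction (adjusted p = 0.230). The interaction of 0.32 ± 0.10 had an unadjusted p = 0.00251 and an adjusted p = 0.0733. On low fat, 5 of 6 mice at day 28 were below the lowest mouse at day 3, a difference of -0.24 ± 0.07 that was not called (adjusted p = 0.114).

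Phkb, the beta subunit, had levels of 11.59, 11.71 and 12.01 on low fat and 11.52, 11.65 and 11.75 on high fat at day 3, and 11.42, 11.57 and 11.65 against 11.51, 11.65 and 11.78 at day 28. The diet groups overlapped at both days. The differences were -0.10 ± 0.07 (adjusted p = 0.364) and 0.11 ± 0.07 (adjusted p = 0.331). On low fat, 5 of 6 mice at day 28 were below the lowest mouse at day 3, a difference of -0.19 ± 0.07 that was not called (adjusted p = 0.168). In the order of its means, the step from high fat day 3 to low fat day 28, 0.098, exceeded the larger SD of its neighbours, 0.090. For Phkg1, Ugp2 and Ppp1r3c no step did.

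Slow fibre markers differed by diet, so the glycogen genes were also set against them within the groups, using deviations from each group's mean over 24 arrays. Phka1 had Pearson's r = -0.55 (permutation p = 0.0164, 0.0739 adjusted over the 9 genes) and Spearman's rho = -0.56 (permutation p = 0.00947, adjusted 0.0426). Phkb had r = -0.55 (permutation p = 0.0116, adjusted 0.0739) and rho = -0.57 (permutation p = 0.00534, adjusted 0.0426). Pearson's r was negative in each of the 4 groups for both genes, from -0.15 to -0.71 for Phka1 and from -0.45 to -0.83 for Phkb. Without the 2 arrays of largest slow fibre deviation (low fat day 3 replicate 3 and low fat day 28 replicate 2), r was -0.49 for Phka1 and -0.59 for Phkb. None of the other 7 genes passed by either coefficient, with adjusted permutation p of 0.210 or more, Phkg1 among them (r = 0.15). The same 9 relations to the adipocyte mean, added later, gave none that passed, with a lowest adjusted permutation p = 0.207. Adjusted over all 18 relations, neither Phka1 nor Phkb passed, with a permutation p of 0.138 for r and 0.0852 for rho in both. With the slow fibre level held constant, the difference of Phka1 at day 3 had the opposite sign (0.06 ± 0.15, SE, adjusted p = 0.913), and 16 of all tested genes were called. The slow fibre means of the diets did not overlap, so diet and slow fibre level cannot be told apart in that model. All 9 slow fibre markers on the array were called higher on high fat at both days, against 7.99% and 5.35% of all tested genes. On low fat some lay under the minimum for testing of 4, with day 3 medians of 2.70 for Myh7 and 2.51 for Tnni1. Every high fat array exceeded that minimum for both. The sizes of such differences therefore depend on the background correction.

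**Figure D3:**
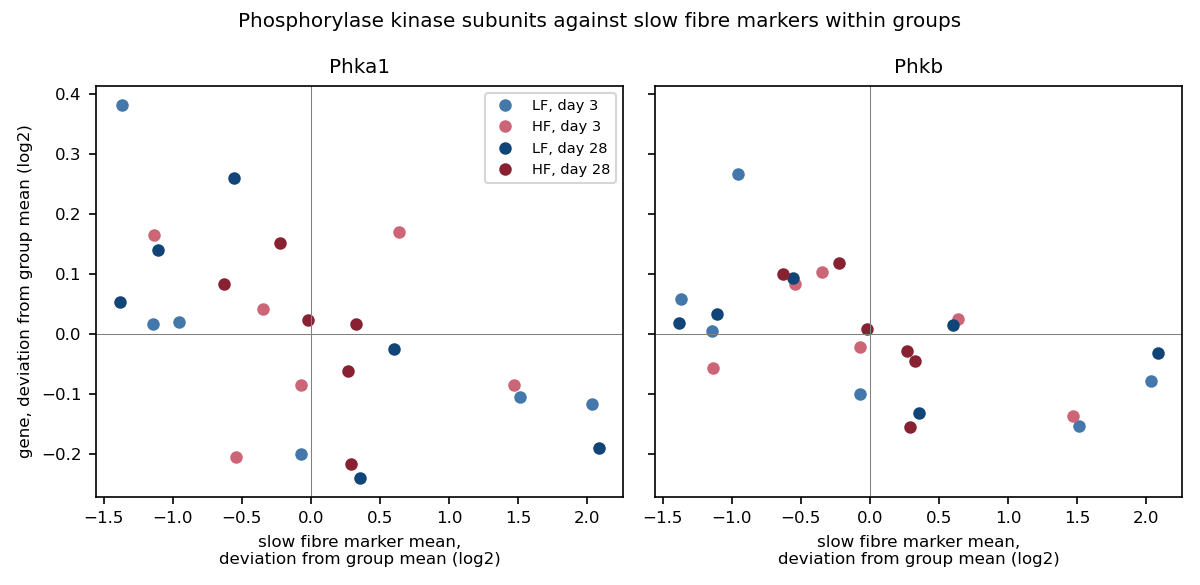
Deviation of Phka1 (left) and Phkb (right) from the group mean (y axis, log2) against the deviation of the slow fibre marker mean from its group mean (x axis, log2), one point per array and a colour per group, for 24 arrays. In both panels points to the right lie lower, with r = -0.55 in each.

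Ppp1r3c, which brings protein phosphatase 1 to glycogen, was lower on high fat by a similar amount at both days. Its levels were 10.53, 11.02 and 11.75 on low fat and 10.31, 10.73 and 10.92 on high fat at day 3, and 10.79, 11.21 and 11.69 against 10.73, 10.85 and 11.07 at day 28. The low fat mice were spread widely, and the groups overlapped at each day. Taken singly, the differences of -0.37 ± 0.17 (adjusted p = 0.140) and -0.35 ± 0.17 (adjusted p = 0.193) were not called. The mean of both diet effects, a comparison added after these values were seen, was -0.36 ± 0.12 (95% interval -0.60 to -0.12, limma adjusted p = 0.0300). In that comparison limma called 2 of 8 glycogen genes, both lower, against 21.5% of all tested genes (10.8% lower), the other being Gbe1 at -0.41 ± 0.10 (adjusted p = 0.00503). The call of Ppp1r3c was lost without low fat replicate 2 or high fat replicate 4 of day 3 and without low fat replicate 4 or 6 of day 28, at adjusted p of 0.0519 to 0.0562, and also with array weights (-0.24, 0.106), without the 4 arrays of highest beta-actin 3′ to 5′ ratio (0.0571) and with the adipocyte level held constant (-0.28, 0.432). Its sign turned with the slow fibre level held constant (0.16 ± 0.23, adjusted p = 0.921), a level that cannot be told apart from diet here.

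Ppp1r3a, the targeting subunit of skeletal muscle, was listed at log2 levels of 1.45 to 2.19 over the 24 arrays. It exceeded the minimum of 4 on 0 arrays and was not tested. Its medians were 1.84 and 1.81 at day 3 and 1.84 and 1.78 at day 28, low fat first, and all groups overlapped. Whether this probe set reads the transcript was not tested.

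Between day 3 and day 28, limma called 0 of 8 genes on low fat and 0 of 8 on high fat, against 0.345% and 0.552% of all tested genes. At an unadjusted p under 0.05 there were 3 of 8 on low fat and 1 of 8 on high fat, against 16.6% and 14.4% of all tested genes. The 3 on low fat were Gbe1, which was higher at day 28 by its mean, and Phkb and Phkg1, which were lower. On high fat all 8 differences between days were above 0, with a median of 0.10, beside 0.01 over all tested genes. The interaction called 0 of 8 genes, against 1.38% of all tested genes. At an unadjusted p under 0.05 there were 3 of 8, against 18.8% of all tested genes, and 7 of the 8 interaction estimates were above 0. Their median was 0.17, beside 0.001 over all tested genes. The interaction, the change between days on high fat and the diet difference at day 3 all use the high fat day 3 arrays. Their sign counts are therefore not independent and were not tested. Of the 80 genes called for the interaction over the whole table, 39 had a positive estimate, and after quantile normalization 59 of 100.

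Within the groups the glycogen genes varied together only in part. Of their 28 pairs, 24 had a Pearson's r above 0 over the 24 arrays, with a median of 0.30 and a range from -0.38 (Phkb with Phkg1) to 0.62 (Pygm with Phkb). Gbe1 and Ugp2 had r = 0.59 and Ugp2 and Phka1 r = 0.59. The catalytic subunit Phkg1 thus did not follow the regulatory subunits, having r = 0.07 with Phka1. These coefficients are descriptions, since all genes of an array share its RNA and its normalization.

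The genes whose deviations were most like those of each member, among 5705 tested genes outside the lists used here, were as follows. Gbe1 was nearest to Rnf139 and Kpna4 (r = 0.77 for each). Phka1 was nearest to Kdm3a (r = 0.88) and Golga3 (0.86), and Phkb to Abcc4 (0.87) and Wnk2 (0.80). Ppp1r3c was nearest to Rab7 (r = 0.84) and Myf6 (0.82), the latter a myogenic transcription factor. Pygm was nearest to Dmd (r = 0.84), the dystrophin gene, and Foxk2 (0.79), Ugp2 to Lrrc2 (0.83) and Asb2 (0.83), Gys1 to Rnf114 (0.79) and Usp28 (0.79), and Phkg1 to Cnot8 (0.73) and Eif4b (0.72). Each r was chosen as the highest of many over 24 arrays and is a measure of likeness only.

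Beyond these 9, the other genes of the pathway and of its control were taken from a list of 42 names, of which 31 had a probe set of their own and 25 were tested. At day 3, 1 of 25 was higher (Calm2) and 2 lower (Pygl and Gaa) on high fat. At day 28, 0 were higher and 3 lower (Pygl, Prkar2b and Stbd1). At both days 3 of 25 is a share near that of all tested genes, 14.9% and 12.5%, and is no result about the list. The median log2 difference of the 25 was -0.08 at day 3 and 0.05 at day 28. Among those not called were glycogenin, Gyg, which primes new chains (-0.08 and 0.03), and both glycogen synthase kinase 3 genes, Gsk3a (-0.05 and 0.07) and Gsk3b (-0.69 and 0.35, adjusted p = 0.141 and 0.534). Gys2, Pygb, Ppp1r3b, Ppp1r3d, Ppp1r3g and Epm2a, among them the liver synthase and the brain phosphorylase, exceeded a log2 level of 4 on 0 arrays and were not tested.

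**Figure D4:**
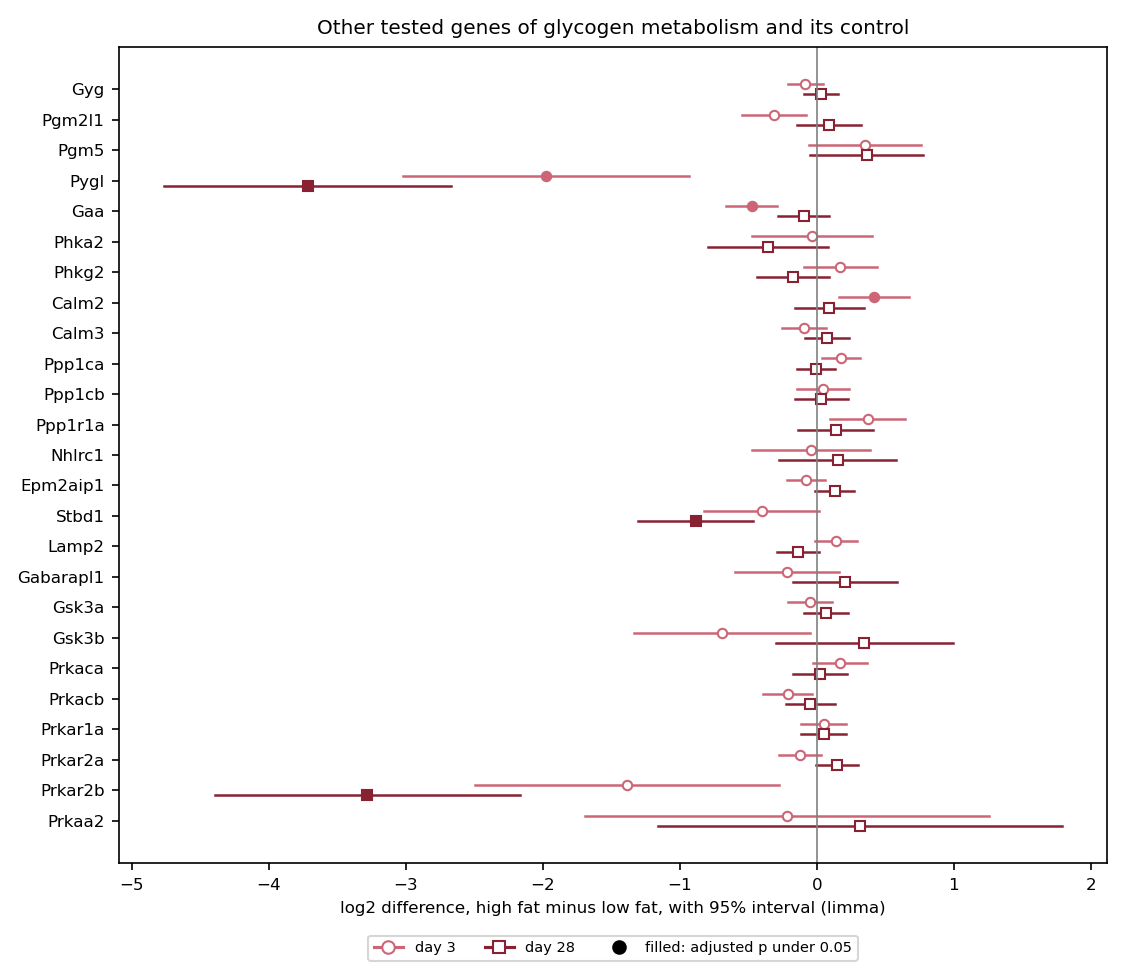
Log2 difference of high fat from low fat (x axis) for the 25 other tested genes of glycogen metabolism and its control (y axis), with circles for day 3, squares for day 28, lines for the 95% interval and filled marks for an adjusted p under 0.05. Pygl (-1.98 and -3.72) lies far to the left, as does Prkar2b, whose high fat level at day 28 was under the minimum for testing on all 6 arrays, and most other intervals include 0.

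Pygl, the liver form of glycogen phosphorylase, was lower on high fat at both days. At day 28 its lowest, median and highest levels were 6.45, 7.90 and 8.35 on low fat and 3.53, 3.99 and 4.21 on high fat. The groups were far apart, with a difference of -3.72 ± 0.51 (SE, limma adjusted p = 3.97e-05), although only 3 of the 6 high fat arrays exceeded the minimum for testing, where the background correction weighs most. At day 3 the levels were 4.80, 6.56 and 7.72 on low fat and 3.49, 4.30 and 7.17 on high fat, where 5 of 6 mice were below every low fat mouse and replicate 5 stood at 7.17. That difference was -1.98 ± 0.51 (adjusted p = 0.0105), and it was not called when only the day 3 arrays were fitted (0.0640) or without the 4 arrays of highest beta-actin ratio (0.0504).

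Prkar2b, a regulatory subunit of protein kinase A that is abundant in fat tissue, had levels of 4.19, 6.14 and 6.35 on low fat and 1.85, 2.39 and 2.65 on high fat at day 28. The groups did not overlap, but 0 of the 6 high fat arrays exceeded the minimum of 4, so the gene was tested only because of its low fat level and the difference has no measured size, only a direction. At day 3 it exceeded 4 on 3 of 6 low fat arrays and on 1 of 6 high fat arrays, replicate 5 at 5.23, and was not called.

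Adipocyte markers moved in the same direction as both genes. Of 8 tested markers, 3 were called lower at day 3 and 7 at day 28, with medians of -1.54 and -3.87, and the mean of 9 on high fat replicate 5 of day 3 was 8.62, above every other high fat array. In the model holding the adipocyte marker level constant, the difference of Pygl was -0.80 at day 3, which was still called (adjusted p = 0.0186), and -0.83 at day 28, which was not (adjusted p = 0.329). For Prkar2b that model gave -0.10 at day 3 (adjusted p = 0.774) and -0.13 at day 28 (adjusted p = 0.919). Holding the slow fibre level constant gave -1.73 (adjusted p = 0.476) and -3.49 (adjusted p = 0.0644) for Pygl. For Prkar2b it gave -1.77 (adjusted p = 0.497) and -3.62 (adjusted p = 0.0748). At day 28 neither marker mean overlapped between the diets, and at day 3 the slow fibre mean did not overlap either. Diet and marker level cannot be told apart in those models. In whole muscle, fewer cells of a type and less RNA per cell cannot be told apart.

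Stbd1, a protein that tethers glycogen to membranes, had levels of 7.56, 8.02 and 8.68 on low fat and 6.96, 7.13 and 7.55 on high fat at day 28. The groups were separated by less than 0.01, and the difference was -0.88 ± 0.20 (adjusted p = 0.00475). Holding the adipocyte level constant gave -0.84 ± 0.34 (adjusted p = 0.348), and holding the slow fibre level constant gave -0.11 ± 0.27 (adjusted p = 0.968). Neither level can be told apart from diet at day 28. At day 3 the difference was -0.40 ± 0.20 (adjusted p = 0.190), with overlapping groups.

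Gaa, the lysosomal enzyme that degrades glycogen, differed at day 3. Its levels were 9.32, 9.55 and 9.76 on low fat and 8.78, 9.14 and 9.23 on high fat, so that no high fat mouse reached the lowest low fat mouse, as for 2.59% of all tested genes. The difference was -0.48 ± 0.09 (adjusted p = 0.00110), and it was called without any one array but not with the slow fibre level held constant (-0.31, 0.449). That level cannot be told apart from diet here. At day 28 the levels were 9.15, 9.38 and 9.68 against 9.18, 9.29 and 9.39, overlapping, with a difference of -0.10 ± 0.09 (adjusted p = 0.553). The interaction was 0.38 and was not called (adjusted p = 0.115).

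Calm2, which encodes calmodulin, a subunit of phosphorylase kinase with many other partners, was the one called higher. Its levels were 10.28, 10.76 and 10.93 on low fat and 10.75, 11.09 and 11.40 on high fat at day 3. Of the high fat mice, 4 of 6 were above every low fat mouse, and the difference was 0.42 ± 0.12 (adjusted p = 0.0250). It was not called without low fat replicate 2 (0.0658) or 5 (0.0685) or high fat replicate 5 (0.0606) of day 3, nor when only the day 3 arrays were fitted (0.0780), with array weights (0.0863), without the 4 beta-actin arrays (0.0889) or with the slow fibre (0.676) or adipocyte level (0.0547) held constant. Slow fibre level and diet cannot be told apart at day 3. At day 28 the levels of Calm2 ran from 10.68 to 11.16 on low fat and from 10.92 to 11.33 on high fat, a difference of 0.09 ± 0.12 (adjusted p = 0.699).

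**Figure D5:**
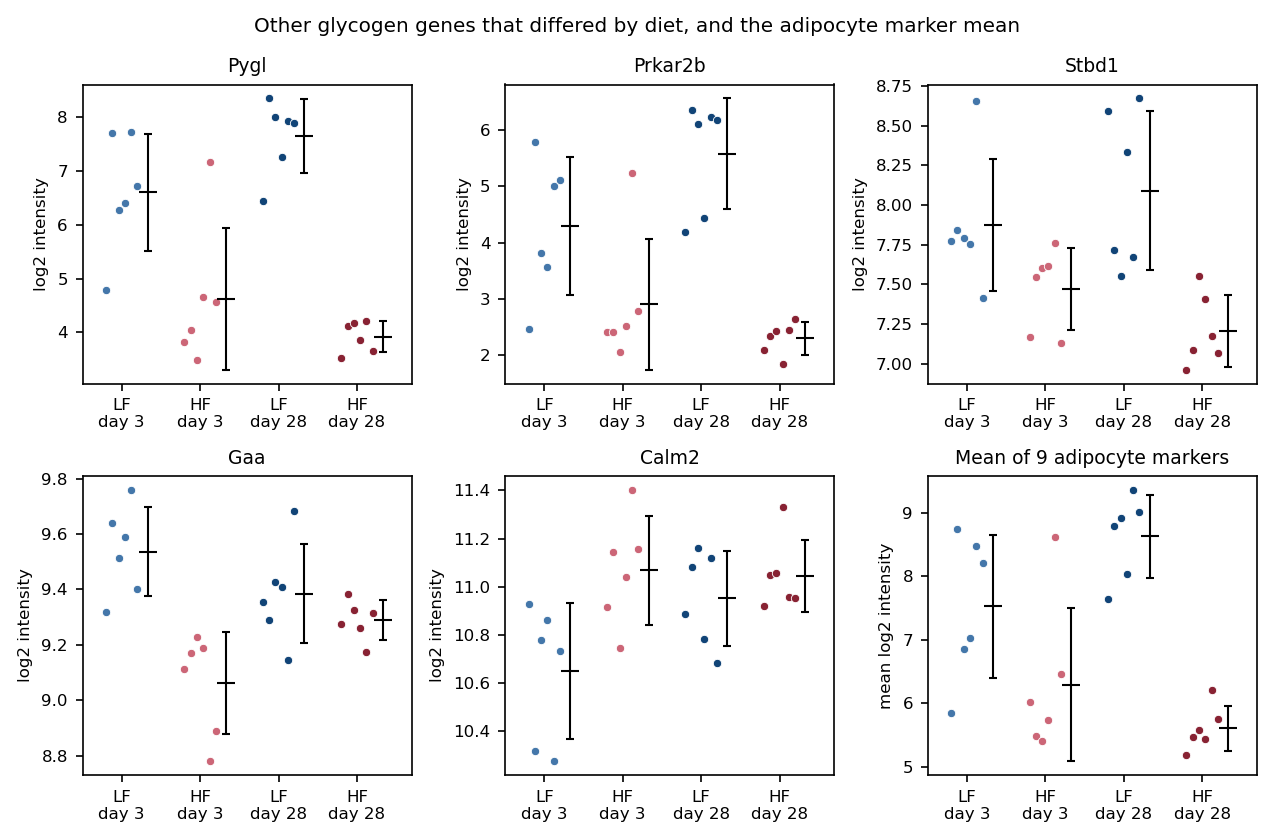
Log2 intensity (y axis) of the 5 other genes that passed the test of diet at day 3 or day 28, and the mean log2 intensity of 9 adipocyte markers, in the 4 groups of 6 mice (x axis), with points for arrays and black marks for the mean and SD. Pygl, Prkar2b and the adipocyte mean share a high point on high fat at day 3, replicate 5, at 7.17, 5.23 and 8.62.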

How the data were processed

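Values of 24 Affymetrix arrays, 1 per mouse, were used as deposited. The deposited table holds 1 linear intensity per probe set, computed by the authors with GCRMA per the submitters' processing notes, with version, probe definition and genome build not given in the sources used here. GCRMA corrects background from probe sequence and normalizes arrays to one distribution, so folds of dim genes depend on that correction. Symbols came from the platform annotation, and probe sets with several symbols were left unnamed. Intensities were taken to log2 with no offset and no further normalization. Testing was limited to genes above a log2 value of 4 on 6 or more of the arrays. Group means were fitted over all 24 arrays with limma 3.58.1 in R 4.3.3 (lmFit, eBayes, 20 residual degrees of freedom), two-sided, with Benjamini-Hochberg adjustment over 5793 genes and calls at an adjusted p under 0.05. SE and 95% intervals are from that fit, and intervals are not adjusted. The fit was tested on simulated data. Correlations with markers used deviations from group means and 100000 permutations within groups (two-sided, scipy 1.17.1). The number of arrays limits the precision.

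The genes and lists were chosen with earlier results of these data known. Named were all 9 genes, every other listed glycogen gene called in 1 of the 5 planned comparisons (diet at each day, their interaction, day on each diet), and the 2 genes most like each tested member. For low fat day 3 replicate 1 the labels do not name removal of genomic DNA. Replicate numbers name different mice and do not pair the samples: deviations of same-numbered arrays correlated at -0.38 to 0.54. Alternatives covered the replicate block, quantile normalization, filters, the arrays fitted, array weights, arrays of high beta-actin 3′ to 5′ ratio, covariates and each array left out.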

Additional observations from a re-analysis of the deposited data

Results flagged for a closer look

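Among 56 groups of 6 arrays checked, covering the 9 glycogen genes and the 5 other genes that passed a test, 5 held an array standing apart from the others of its group, and chance alone marks about 1 in 20 groups. Ppp1r3a stood at 2.19 on low fat day 3 replicate 6, against 1.78 to 1.88 on the other arrays of that group. Pygl stood at 7.17 on high fat day 3 replicate 5, against 3.49 to 4.67. Prkar2b stood at 5.23 on the same array, against 2.06 to 2.79. Stbd1 stood at 8.66 on low fat day 3 replicate 5, against 7.41 to 7.84. Calm2 stood at 11.33 on high fat day 28 replicate 4, against 10.92 to 11.06.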

How the results depend on the processing

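The count of glycogen genes called at day 3 (1) was 0 with the replicate block, with no filter on low values, when only the arrays compared were fitted, with array weights, without the 4 arrays of highest beta-actin ratio and with the slow fibre level held constant, and 2 when a mean log2 above 6 was required. At day 28 the count (1) was 0 with the slow fibre or the adipocyte level held constant. For the averaged diet effect it (2) was 1 with array weights or without the 4 beta-actin arrays, and 0 with either marker level held constant. At day 3 the adipocyte level held constant left 1, Phkg1 in place of Phka1. Leaving out each array in turn gave 0 to 2 at day 3, 1 at day 28 and 1 to 2 for the averaged effect. For day against day and the interaction it was 0 under every alternative run. Among called results, signs turned, the slow fibre level held constant, for Phka1 at day 3 (0.063) and for the averaged effects of Ppp1r3c (0.16) and Stbd1 (0.18). Among uncalled diet effects they turned under that term for Ppp1r3c at both days (0.18 and 0.14), Phkb (0.13) and Stbd1 (0.47) at day 3, Calm2 (-0.05) and Gaa (0.05) at day 28, and the averaged effects of Ugp2 (0.02) and Phka1 (0.21). The slow fibre means of the diets did not overlap, so diet and this term cannot be told apart, and the cause was not tested. With the adipocyte level held constant, signs of uncalled day 28 effects turned for Gys1 (-0.17), Ugp2 (-0.11), Phka1 (-0.04) and Phkg1 (-0.06). The adipocyte means did not overlap between the diets at day 28 either, and the cause of these turns was not tested. Over all tested genes, calls at day 3 numbered 861, 507 with only the arrays compared and 16 with the slow fibre mean. At day 28 they numbered 726, 473 with a mean log2 above 6, 23 with the slow fibre and 38 with the adipocyte mean. For the averaged effect they numbered 1247, 17 and 334 with the slow fibre and adipocyte terms. For the interaction they numbered 80, 176 with the replicate block and 278 with array weights, and 6 without a filter, 6 without the beta-actin arrays and 9 with the adipocyte mean. Leaving out 1 array moved that count to between 19 and 115, with 19 without low fat day 28 replicate 5 or high fat day 28 replicate 2, and moved it by over 1.5 times for 8 of 24 arrays. Day 28 against day 3 gave 20 calls on low fat, 0 to 132 over the alternatives and 0 to 59 without 1 array, and on high fat 32, 5 to 106 and 3 to 51. The replicate block left Gbe1 at day 28 called and changed no call among the 8 tested glycogen genes other than that of Phka1 at day 3 (adjusted p = 0.0683). Beside the arrays left out, the call was lost in 7 of 9 alternatives for Phka1 at day 3, 2 of 9 for Gbe1 at day 28, 2 of 8 for the averaged effect of Gbe1 and 4 of 8 for that of Ppp1r3c.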
